A study of Homo sapiens with 12 samples.

Results

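In all, 8 genes of plasma membrane amino acid transporters were examined, namely SLC3A2, SLC7A5, SLC7A11, SLC7A1, SLC1A5, SLC1A4, SLC38A1 and SLC38A2, out of 11070 genes listed for 23132/87 cells and 11554 listed for SW48 cells. They were taken by gene symbol from a fixed list, and all 8 were listed in both tables. That list was chosen with earlier results of these data known. Messenger RNA was sequenced from 23132/87, an established gastric adenocarcinoma line, and SW48, an established colorectal adenocarcinoma line. Each line was given 10 µM myricone C, called a neolignan from Myristica fragrans in the series title, or DMSO vehicle alone, and was harvested after 48 h. Both lines carry the genotype label WT, grew in RPMI-1640 with heat-inactivated serum, and were sequenced as 3 biological replicates of each treatment, making 12 libraries. Each tissue is represented by 1 cell line, so a difference between the lines is one between 23132/87 and SW48 and not between gastric and colorectal cells in general.

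Cells import amino acids through families of carriers with overlapping substrates. SLC3A2 encodes 4F2hc (CD98), a glycoprotein that carries no substrate itself but brings light chains of the SLC7 family to the cell surface. Its light chains include LAT1 (SLC7A5), which exchanges leucine and other large neutral amino acids, and xCT (SLC7A11), which takes up cystine in exchange for glutamate and so feeds glutathione synthesis. CAT-1 (SLC7A1) carries arginine and lysine without a heavy chain. ASCT2 (SLC1A5) and ASCT1 (SLC1A4) are sodium-dependent exchangers of small neutral amino acids, with glutamine a main substrate of the former and serine and alanine among those of the latter. SNAT1 (SLC38A1) and SNAT2 (SLC38A2) are sodium-coupled carriers of glutamine and alanine. When the kinases of the integrated stress response phosphorylate eIF2, translation of the transcription factor ATF4 rises, and many of these transporter genes are known ATF4 targets. SLC7A11 is also a target of NRF2, the factor of the antioxidant response.

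Values are the deposited expression signal per gene, which looks like FPKM or TPM, a scaling to library size and gene length. Listed values of a library summed to between 464037 and 536594. In SW48, treated replicate 1 lay nearest to vehicle on the leading principal component (14.4, against 36.5 and 29.1 for its partners), and 7SL, 7SK and small nuclear RNA genes took 5.26% of its summed values against 0.0490% to 0.204% in the other SW48 libraries. All 5 general epithelial markers examined (EPCAM, CDH1, KRT8, KRT18 and KRT19) were listed in both lines, and no leukocyte marker of 6 was. Of 8 gastric markers only TFF1 was listed in 23132/87 and none in SW48. Of 8 intestinal markers 5 were listed in 23132/87 (CDH17, CDX2, GUCY2C, LGALS4 and VIL1) and 2 in SW48 (CDH17 and CDX2). Of 7 mesenchymal and endothelial markers 1 was listed in each line, COL1A1 in 23132/87 and ACTA2 in SW48, and neither passed the test. Of the general epithelial markers, 4 of 5 fell and 1 rose in 23132/87 (median log2 change -1.22), while 4 rose in SW48 (median 0.74). Among the gastric and intestinal markers, TFF1 (-0.85) and VIL1 (-1.54) fell and LGALS4 (1.44) and GUCY2C (0.50) rose in 23132/87, and CDX2 (-1.47) fell in SW48. Over all listed genes 46.5% were called in 23132/87 and 29.3% in SW48. The part of these markers in the transporter results was not tested. In bulk RNA a change in the share of cells that express a gene and a change in its RNA per cell cannot be told apart.

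Myricone C raised the transcripts of all 8 transporters in 23132/87 and of 7 in SW48, and lowered none past the threshold of adjusted p under 0.05 (limma). The largest rise in both lines was that of SLC7A11, 6.73-fold between group means in 23132/87 and 11.8-fold in SW48. SLC3A2 rose 3.88-fold and 3.78-fold. Responses differed between the lines for 4 genes. The ASCT genes SLC1A5 and SLC1A4 rose more in 23132/87, whereas SLC7A1 and SLC38A2 rose more in SW48. Over all listed genes, 23.3% rose and 23.2% fell in 23132/87, and 10.1% rose and 19.2% fell in SW48. The median log2 change of the 8 genes was 1.42 in 23132/87 and 1.54 in SW48, against 0.014 and -0.080 over all listed genes. Since the 8 genes were chosen with earlier results known, their shares and medians beside all genes are a description, not an independent test. The treated and vehicle libraries did not overlap for 8 of the 8 genes in 23132/87 and 7 of the 8 in SW48, always with treated higher. Groups were apart in this way, in either direction, for 56.8% and 45.3% of listed genes, and with treated higher for 28.9% and 16.8% of listed genes. In SW48, treated replicate 1 was the lowest treated library for 7 of the 8 genes. The same 7 genes were called without that library, and their log2 changes were then 1.22 to 3.15.

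**Figure D1:**
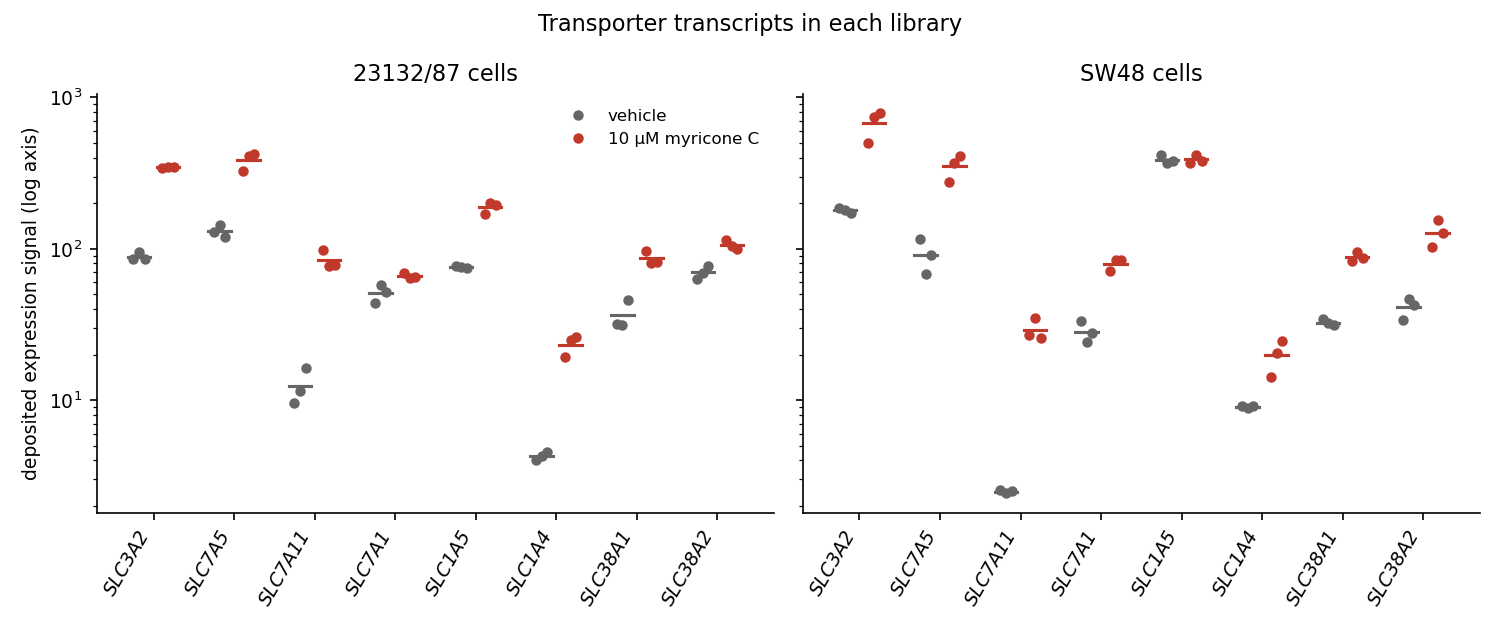
Deposited expression signal (vertical log axis) of the 8 transporter transcripts in each of the 3 vehicle (grey) and 3 myricone C (red) libraries of 23132/87 (left) and SW48 (right), with points for libraries and bars for group means. Treated points lie above all vehicle points for every gene but SLC1A5 in SW48, whose 6 libraries lie between 367 and 419.

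Because most of the 8 genes rose together, sequence around their transcription starts is shown here. The promoter windows are those of RefSeq on GRCh38.p14, reaching from 250 bases before an annotated start to 50 bases after it, and 7 of the 8 genes matched, with 13 windows between them. SLC7A11 had no entry. On both strands the windows were searched for TGATGNAA, the letters of the composite C/EBP-ATF response element that ATF4 binds with C/EBP proteins. It was present in 5 of the 13 windows, 1 each for 5 genes, and in 3.62% of all 35116 RefSeq windows. The 5 matches are printed 5′ to 3′ on the strand of the gene, as stretches of 30 bases with the matched letters in capitals.
SLC1A4: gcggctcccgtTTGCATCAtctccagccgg
SLC1A5: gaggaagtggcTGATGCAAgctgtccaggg
SLC3A2: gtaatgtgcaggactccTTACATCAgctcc
SLC7A1: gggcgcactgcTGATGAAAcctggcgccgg
SLC38A1: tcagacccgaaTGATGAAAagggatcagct
The stretch of SLC1A4 lies at chr2:64989381-64989410 on the plus strand and its match covers bases -7 to 1 from the start, where 1 is the first transcribed base. That of SLC1A5 lies at chr19:46784893-46784922 on the minus strand, with the match at -97 to -90. The SLC3A2 stretch, at chr11:62881719-62881748 on the plus strand, has its match at 38 to 45. The SLC7A1 stretch, at chr13:29595663-29595692 on the minus strand, has it at 8 to 15. The SLC38A1 stretch, at chr12:46266502-46266531 on the minus strand, has it at -4 to 4. The starts behind these matches lie within the annotated gene, downstream of its first base, for all but SLC7A1. In SLC1A4 and SLC3A2 the capitals are the reverse complement of the searched letters. Binding and start site use were not measured, and these letters are not in the windows of SLC7A5 and SLC38A2. The last 30 bases of both SLC38A1 windows are in no GENCODE release 29 transcript of the gene.

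A second search used TGACNNNGC, the core of the antioxidant response element that NRF2 binds with small MAF proteins. It was present in 4 of the 13 windows and in 13.3% of all windows. The 4 stretches, shown in the same way, come from genes of both the heteromeric and the single-chain carriers.
SLC3A2: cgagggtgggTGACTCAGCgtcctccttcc
SLC7A5: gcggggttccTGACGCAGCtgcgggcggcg
SLC7A1: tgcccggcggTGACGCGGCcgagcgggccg
SLC1A5: cctggatcttGCGAGGTCAgctcccgctcc
They lie at chr11:62881652-62881681 (plus strand, bases -37 to -29), chr16:87869490-87869519 (minus strand, -2 to 7), chr13:29595754-29595783 (minus strand, -85 to -77) and chr19:46787385-46787414 (minus strand, -111 to -103, reverse complement). The first 7 capitals of the SLC3A2 match also spell the AP-1 element. The E-box CACGTG, a site for MYC with MAX, was in 2 of the 13 windows, that of SLC7A5 and the SLC1A5 window that holds the match just shown, and in 7.26% of all windows.

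The heavy chain gene SLC3A2 (chromosome 11, 62856102 to 62888875, plus strand on GRCh38) rose in both lines. In 23132/87 it was at 85.7, 95.4 and 85.6 in the vehicle libraries and 341, 347 and 348 in the treated ones. In SW48 the values were 185, 180.3 and 173 with vehicle and 499, 739 and 795 with myricone C. Treated libraries of 23132/87 lay close together, while those of SW48 spread widely with replicate 1 lowest. The log2 change was 1.95 ± 0.090 (SE, n = 3 per group, adjusted p = 1.25e-06) in 23132/87 and 1.88 ± 0.16 (adjusted p = 5.35e-05) in SW48. The difference between the lines, SW48 minus 23132/87 here and below, was -0.060 ± 0.19 (adjusted p = 0.871), with a 95% confidence interval of -0.48 to 0.35. It was 0.15 without SW48 treated replicate 1, again not called.

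SLC7A11 (chromosome 4, 138164097 to 138242349, minus strand), the cystine carrier, started low and rose furthest. In 23132/87 it went from 9.58, 11.5 and 16.4 to 97.5, 76.7 and 77.7, so the lowest treated library was well above the highest vehicle library. In SW48 it went from 2.55, 2.42 and 2.50 to 27.1, 35.0 and 25.6. Group means (± SD, n = 3) were 12.5 ± 3.50 and 84.0 ± 11.7 in 23132/87, and 2.49 ± 0.0635 and 29.3 ± 5.05 in SW48. The log2 changes were 2.68 ± 0.17 (SE, adjusted p = 4.86e-06) and 3.10 ± 0.15 (adjusted p = 2.44e-06), ranking 14 of 11070 and 12 of 11554 genes from the largest rise. The larger fold in SW48 was not called as a difference between lines, at 0.43 ± 0.24 (adjusted p = 0.252, 95% confidence interval -0.079 to 0.93). The size and sign of this difference depended on the pseudocount, the SW48 vehicle level being low. It was 0.72 with a pseudocount of 0.1 (adjusted p = 0.0710) and -0.17 with one of 5 (adjusted p = 0.598).

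SLC7A5 (chromosome 16, 87830023 to 87869488, minus strand), the leucine exchanger, was the most abundant of the 8 transcripts in 23132/87 vehicle cells. There it was at 129, 145 and 120.5 with vehicle and 328, 409.8 and 422 with myricone C, a log2 change of 1.54 ± 0.12 (SE, adjusted p = 1.19e-05). In SW48 the values were 116, 68.0 and 90.9 with vehicle and 278, 368 and 413 with myricone C, a log2 change of 1.95 ± 0.19 (adjusted p = 0.000111). All treated libraries exceeded all vehicle libraries in both lines, and the SW48 vehicle libraries were the more scattered. The difference between lines was 0.41 ± 0.25 (adjusted p = 0.307, 95% confidence interval -0.13 to 0.94). SLC7A5 has 2 annotated pseudogenes, SLC7A5P1 and SLC7A5P2, neither listed in the tables, and reads could be shared with them, so its absolute level is uncertain.

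Set against all its listed light chains, SLC3A2 was higher in treated than in vehicle libraries of both lines, but in SW48 this rested on SLC7A8. The light chains listed in 23132/87 were SLC7A5, SLC7A6 and SLC7A11, and SW48 had SLC7A8 (LAT2) as well. The ratio of SLC3A2 to their summed signal was 0.606, 0.599 and 0.612 in 23132/87 vehicle libraries and 0.794, 0.708 and 0.692 in the treated ones. In SW48 it was 0.783, 0.856 and 0.858 with vehicle and 1.29, 1.58 and 1.62 with myricone C. Treated ratios were above all vehicle ratios in both lines. Over the 3 chains listed in both lines, without SLC7A8, the SW48 ratio was 1.45, 2.33 and 1.71 with vehicle and 1.60, 1.80 and 1.79 with myricone C, and the groups overlapped. SLC7A11 made up 6.77, 7.23 and 11.7% of the light-chain signal in 23132/87 vehicle libraries and 22.7, 15.7 and 15.5% in treated ones. In SW48 its share was 1.08, 1.15 and 1.24% with vehicle and 7.03, 7.48 and 5.22% with myricone C, and no test was made of these shares. In SW48 the make-up also changed through SLC7A8, which fell from 108, 133 and 100.3 to 73.3, 58.4 and 47.6, a log2 change of -0.93 ± 0.16 (SE, adjusted p = 0.00180). SLC7A5 went from 42.2% ± 8.75 of the light-chain signal to 78.2% ± 5.93 in that line, and from 89.4 ± 2.91% to 81.4 ± 4.27% in 23132/87. SLC7A6 (y+LAT2) was at -0.069 ± 0.13 in 23132/87 and -0.27 ± 0.16 in SW48 on the log2 scale of changes and was called in neither. These sums assume that the signal is scaled to gene length.

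**Figure D2:**
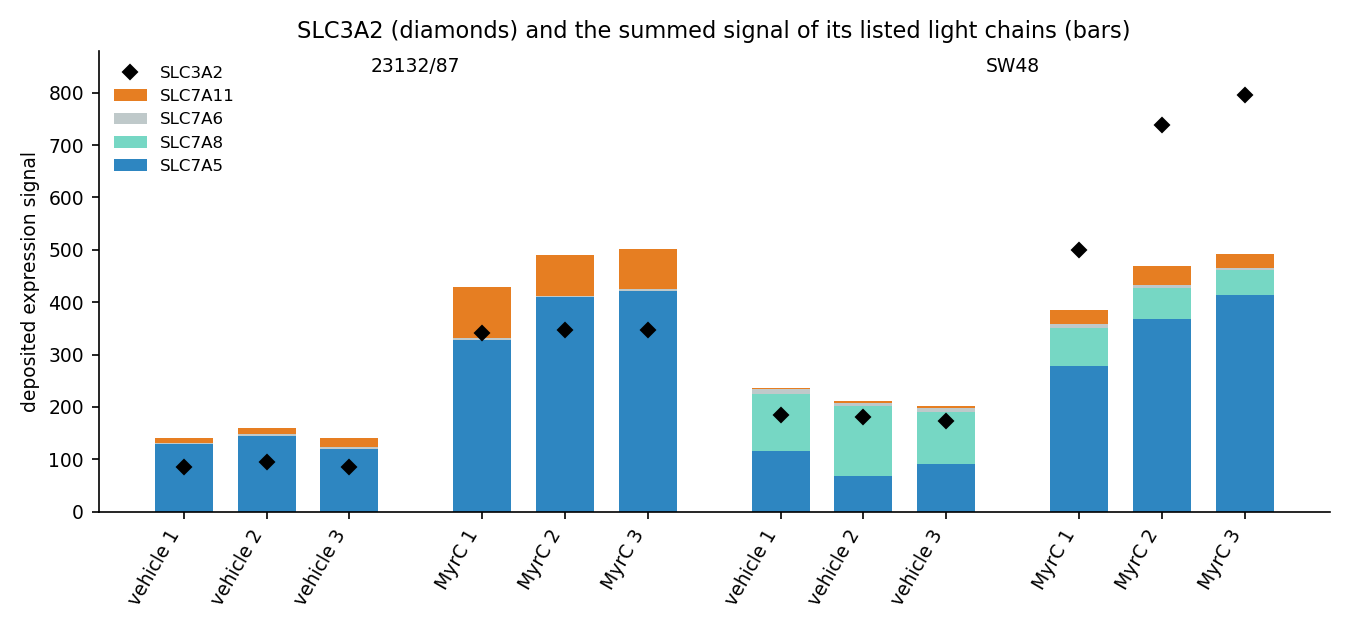
Deposited expression signal (vertical axis, linear from 0) of SLC3A2 (diamonds) and of its listed light chains (stacked bars) in each of the 12 libraries, by line and treatment. Diamonds lie below the bar tops in both vehicle groups and in treated 23132/87, and above them in the 3 treated SW48 libraries. SLC7A8 is listed in SW48 only.

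The cationic carrier gene SLC7A1 (chromosome 13, 29509410 to 29595688, minus strand), through which arginine and lysine enter, separated the lines. In 23132/87 it was at 44.2, 57.7 and 52.1 with vehicle and 69.0, 64.5 and 65.4 with myricone C. The groups did not overlap but lay close. The log2 change was 0.37 ± 0.11 (SE, adjusted p = 0.0198). This call was lost without vehicle replicate 1 (0.27, adjusted p = 0.0736). Over the alternatives tried, the adjusted p in that line ranged from 0.00646 to 0.0736. In SW48 it went from 33.2, 24.1 and 27.9 to 70.9, 84.3 and 84.5, a log2 change of 1.47 ± 0.14 (adjusted p = 8.83e-05). The rise was larger in SW48 by 1.10 ± 0.18 (adjusted p = 0.00172).

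The exchangers of small neutral amino acids rose more in 23132/87 than in SW48. SLC1A5 (chromosome 19, 46774883 to 46788594, minus strand), the glutamine exchanger ASCT2, rose in 23132/87 from 76.7, 76.3 and 74.6 to 171, 202 and 195, a log2 change of 1.30 ± 0.095 (SE, adjusted p = 7.97e-06). In SW48 it was at 418, 367 and 379 with vehicle and 367, 419 and 381 with myricone C. Those groups overlapped, and the log2 change was 0.0047 ± 0.11 (adjusted p = 0.979) with a 95% confidence interval of -0.23 to 0.24. The difference between lines was -1.30 ± 0.14 (adjusted p = 0.000125). The vehicle level of SLC1A5 was 75.9 ± 1.08 (SD, n = 3) in 23132/87 and 388 ± 26.8 in SW48, tables that were made separately, and the treated 23132/87 libraries stayed below every SW48 library.

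SLC1A4 (chromosome 2, 64988477 to 65023865, plus strand), the related exchanger ASCT1, rose in both lines and more so in 23132/87. In 23132/87 it went from 4.01, 4.27 and 4.54 to 19.2, 24.8 and 26.0, 5.46-fold between means and a log2 change of 2.20 ± 0.14 (SE, adjusted p = 3.87e-06). In SW48 it went from 9.15, 8.89 and 9.22 to 14.2, 20.5 and 24.6, 2.17-fold and 1.01 ± 0.18 (adjusted p = 0.00186). Treated and vehicle libraries were apart in both lines, with SW48 treated replicate 1 the nearest to vehicle. The difference between lines was -1.19 ± 0.23 (adjusted p = 0.00491), and -0.98 without that library. The ratio of SLC1A5 to SLC1A4 was lower with treatment in both lines, going from 17.8 ± 1.35 to 8.18 ± 0.699 (SD, n = 3) in 23132/87 and from 42.7 ± 2.61 to 20.6 ± 5.21 in SW48, with no test made of it.

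The system A carriers lie near each other on chromosome 12, SLC38A1 at 46183063 to 46270017 and SLC38A2 at 46358189 to 46372867, both on the minus strand. SLC38A1, or SNAT1, rose in both lines. It went from 32.0, 31.5 and 45.6 to 96.9, 80.8 and 81.6 in 23132/87, a log2 change of 1.24 ± 0.15 (SE, adjusted p = 0.000131). In SW48 it went from 34.3, 32.3 and 31.2 to 83.1, 95.3 and 87.1, a log2 change of 1.41 ± 0.11 (adjusted p = 2.89e-05). The difference, 0.17 ± 0.19, was not called (adjusted p = 0.582, 95% confidence interval -0.23 to 0.57). SLC38A2, or SNAT2, the carrier known for its induction when amino acids run short, rose in 23132/87 from 63.1, 69.7 and 77.5 to 115, 105 and 99.7, a log2 change of 0.60 ± 0.11 (adjusted p = 0.00135). In SW48 it rose from 34.0, 46.4 and 42.9 to 103, 154 and 127, a log2 change of 1.61 ± 0.16 (adjusted p = 0.000122). No library of one group reached the other in either line. The rise of SLC38A2 was larger in SW48 by 1.01 ± 0.21 (adjusted p = 0.00624). The ratio of SLC38A2 to SLC38A1 was 1.97, 2.21 and 1.70 in 23132/87 vehicle libraries and 1.19, 1.30 and 1.22 in treated ones. In SW48 it was 0.991, 1.44 and 1.38 with vehicle and 1.24, 1.62 and 1.46 with myricone C. These ratios separated by treatment in 23132/87 and overlapped in SW48.

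Among the 8 transporters, 4 differed between the lines in their response, against 12.8% of the 10252 genes in both tables. SLC7A1 and SLC38A2 rose more in SW48, where 5.34% of genes had a higher change, and SLC1A5 and SLC1A4 rose more in 23132/87, where 7.43% had one. All 4 calls held under each alternative tried, and so did the lack of a call for SLC3A2, SLC7A5, SLC7A11 and SLC38A1. ATF4 rose in both lines, and its change was 0.64 ± 0.20 higher in SW48 (SE, adjusted p = 0.0448). That difference was not called under 15 of 22 alternatives, among them leaving out any 1 library other than SW48 treated replicate 1, and its adjusted p ranged from 0.00208 to 0.151.

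**Figure D3:**
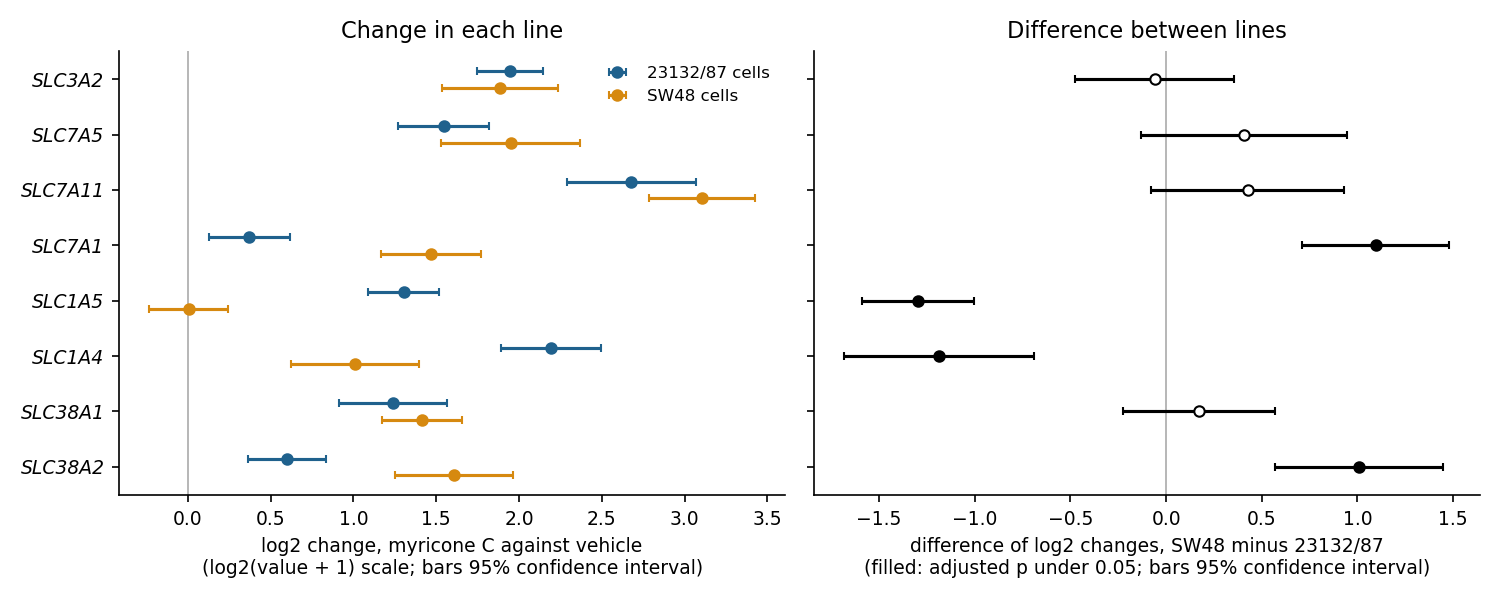
Left, log2 change of each transporter with myricone C against vehicle in 23132/87 (blue) and SW48 (orange). Right, the SW48 change minus the 23132/87 change, filled where adjusted p was under 0.05, with bars for 95% confidence intervals. SLC1A5 and SLC1A4 lie left of 0 in the right panel at -1.30 and -1.19, and SLC7A1 and SLC38A2 lie right of it at 1.10 and 1.01.

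The order of the transporters by level within a group changed with treatment. This order, and the sum and shares given with it, assume that the signal is scaled to gene length. In 23132/87 vehicle cells SLC7A5 (131 ± 12.3, SD, n = 3) stood above SLC3A2 (88.9 ± 5.59), and SLC7A11 and SLC1A4 were lowest. The libraries of SLC1A5 and SLC38A2 overlapped there, as did those of SLC7A1 and SLC38A1. In treated 23132/87 cells SLC7A5 (387 ± 51.0) and SLC3A2 (345 ± 3.82) overlapped at the top, and SLC7A11 (84.0 ± 11.7) had passed SLC7A1 (66.3 ± 2.37). In SW48 vehicle cells SLC1A5 led, with SLC3A2 next and SLC7A11 last, and the neighbours SLC38A2 and SLC38A1, and SLC38A1 and SLC7A1, overlapped. With myricone C, SLC3A2 (678 ± 157) led in SW48 and SLC1A5 and SLC7A5 overlapped behind it. SLC7A11 (29.3 ± 5.05) then stood above SLC1A4 (19.8 ± 5.26). The summed signal of the 8 genes went from 471 ± 23.8 to 1287 ± 43.6 in 23132/87 and from 772 ± 53.0 to 1765 ± 279.6 in SW48. SLC1A5 made up 50.2 ± 0.109% of that sum in SW48 vehicle cells and 22.3 ± 2.91% in treated ones, and 16.1 ± 0.955% and 14.7 ± 0.817% in 23132/87.

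The transcripts whose pattern over the 12 libraries was most like that of each transporter were sought by Pearson correlation of log2(value + 1) after removing each line's mean, among 6543 genes with a mean of at least 10. All points share the libraries and the same treatment contrast, so these values are a description. The gene nearest to SLC7A11 was SLC38A1 (r = 0.994), followed by CARS1, a cysteinyl-tRNA synthetase (r = 0.990), and SLC7A11 was in turn the nearest to SLC38A1. Nearest to SLC3A2 was DDIT3, the stress factor CHOP (r = 0.996), and nearest to SLC7A5 was the C/EBP factor gene CEBPB (r = 0.988). Among the genes whose response differed between lines, SLC7A1 was nearest to CDCP1 (r = 0.987), SLC38A2 to CLDND1 (r = 0.981) and SLC1A4 to RBCK1, a ubiquitin ligase subunit gene (r = 0.993). RBCK1 changed by 2.68 in 23132/87 and 1.31 in SW48 on the log2 scale. SLC1A5 was nearest to SDCBP2 (r = 0.971), which encodes syntenin-2, with r = 0.985 over the 6 libraries of 23132/87 and 0.217 over those of SW48.

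Other plasma membrane amino acid transporters did not move as one. Of 32 on the list, 5 were listed in 23132/87, of which 2 rose and none fell, and 9 in SW48, of which 2 rose and 2 fell. Both tables hold only genes at 1 or more in all 6 libraries of a line, so a transporter below that in any library is not seen here. The median log2 changes were 0.39 and -0.075. Calls in either direction covered 46.5% and 29.3% of all listed genes. The glycine carrier gene SLC6A9 (GLYT1) rose in both lines. It went from 7.59, 9.72 and 10.3 to 29.2, 36.2 and 35.5 in 23132/87, a log2 change of 1.77 ± 0.14 (SE, adjusted p = 1.07e-05). In SW48 it went from 3.42, 3.58 and 2.49 to 21.1, 27.3 and 34.1, a log2 change of 2.76 ± 0.18 (adjusted p = 1.08e-05). The taurine carrier gene SLC6A6 rose in 23132/87, by 0.91 ± 0.12 (adjusted p = 0.000276), and was at -0.075 ± 0.15 in SW48 (adjusted p = 0.750). In SW48, SLC43A1 (LAT3), a uniporter of branched-chain amino acids, rose from 10.5, 10.2 and 9.61 to 22.4, 27.4 and 33.7, a log2 change of 1.36 ± 0.15 (adjusted p = 0.000207), and SLC7A8 fell. SLC43A2 (LAT4), named after its values were seen, was at -0.71 ± 0.19 (adjusted p = 0.0175) in SW48, a call lost without vehicle replicate 2 (-0.51) or treated replicate 2 (-0.63). Its SW48 means were low, at 3.10 with vehicle and 1.46 with myricone C.

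Transporters inside the cell showed no rise past the threshold. Of 16 listed lysosomal and mitochondrial amino acid carriers, none rose and 5 fell in 23132/87, and none rose and 3 fell in SW48, with median log2 changes of -0.13 and -0.019. Of all listed genes 23.3% rose in 23132/87 and only 10.1% in SW48. The shares that fell were 23.2% and 19.2%, the latter close to the SW48 share of these carriers. SFXN1, the mitochondrial serine carrier, fell in 23132/87, where its vehicle libraries were at 61.8, 54.9 and 61.3 and its treated ones at 31.8, 33.4 and 26.9. Its change there was -0.93 ± 0.11 on the log2 scale (adjusted p = 0.000122), and it was at 0.098 ± 0.16 in SW48 (adjusted p = 0.680). The aspartate-glutamate carrier SLC25A13 fell in both, by 0.74 ± 0.12 in 23132/87 (adjusted p = 0.000661) and 0.59 ± 0.12 in SW48 (adjusted p = 0.00438). Its paralogue SLC25A12 fell by 0.58 ± 0.13 in SW48 (adjusted p = 0.00789). In 23132/87 it fell by 0.35 ± 0.11 (adjusted p = 0.0275), a call lost under 6 of 16 alternatives. SLC38A9, the lysosomal arginine sensor and a relative of SLC38A2 that was chosen after its values were seen, was at 0.064 ± 0.15 and -0.013 ± 0.20 and was not called.

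Use of the cystine brought in by SLC7A11 was not measured. Genes on a list named for glutathione synthesis and cystine use, which also holds genes of glutathione breakdown, moved in both directions. Of its 10 genes listed in each line, 6 rose and 3 fell, with median log2 changes of 1.04 in 23132/87 and 0.83 in SW48. Over all listed genes 23.3% rose and 23.2% fell in 23132/87, and 10.1% rose and 19.2% fell in SW48. Both subunits of glutamate-cysteine ligase were among those that rose. GCLM, the modifier subunit, rose by 2.01 ± 0.17 (SE, adjusted p = 1.89e-05) in 23132/87. In SW48 it rose by 1.22 ± 0.17 (adjusted p = 0.000515). GCLC, the catalytic subunit, rose by 1.90 ± 0.16 (adjusted p = 1.52e-05) in 23132/87. Its rise in SW48 was 2.21 ± 0.19 (adjusted p = 5.58e-05). CHAC1, which degrades glutathione, rose by 3.82 ± 0.13 in 23132/87 (adjusted p = 1.82e-07) and 4.60 ± 0.25 in SW48 (adjusted p = 4.78e-06).

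Genes that sense amino acids were called about as often as all genes, and the list of factors of the amino acid response, TRIB3 included, mostly rose. Among genes of amino acid sensing by GCN2 and mTORC1, the kinases included, 7 of 23 rose and 4 fell in 23132/87 (median log2 change 0.046), and 2 of 24 rose and 5 fell in SW48 (median -0.079). Calls in either direction covered 46.5% and 29.3% of all listed genes. SESN2, the leucine sensor sestrin 2, rose by 2.34 ± 0.16 (SE, adjusted p = 5.38e-06) in 23132/87 and 2.06 ± 0.22 (adjusted p = 0.000180) in SW48. DEPDC5, a subunit of the GATOR1 complex that restrains mTORC1, fell by 0.97 ± 0.13 in 23132/87 (adjusted p = 0.000298), and LAMTOR2, a subunit of the Ragulator complex that anchors mTORC1 to lysosomes, fell by 0.94 ± 0.13 in SW48 (adjusted p = 0.000480). Of these factors, 8 of 10 rose and 1 fell in 23132/87 (median 1.39), and 9 of 9 rose in SW48 (median 1.81), against 23.3% and 10.1% of all listed genes that rose. ATF4 was at 192, 199.8 and 223 in 23132/87 vehicle libraries and at 479, 484 and 446 in treated ones. In SW48 it was at 133, 130.3 and 127 in vehicle and 353, 507 and 564 in treated libraries. Its groups did not overlap in either line. DDIT3 rose by 4.18 ± 0.19 in 23132/87 (adjusted p = 1.25e-06) and 4.55 ± 0.29 in SW48 (adjusted p = 9.67e-06). ATF3 rose by 4.18 ± 0.26 in 23132/87 (adjusted p = 3.93e-06) and was not listed in SW48. A gene below 1 in any library of a line is not listed, so the response of ATF3 in SW48 is not known. TRIB3, a pseudokinase that restrains ATF4, rose by 3.10 ± 0.085 in 23132/87 (adjusted p = 6.09e-08). Its rise in SW48 was 3.40 ± 0.25 (adjusted p = 1.99e-05).

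**Figure D4:**
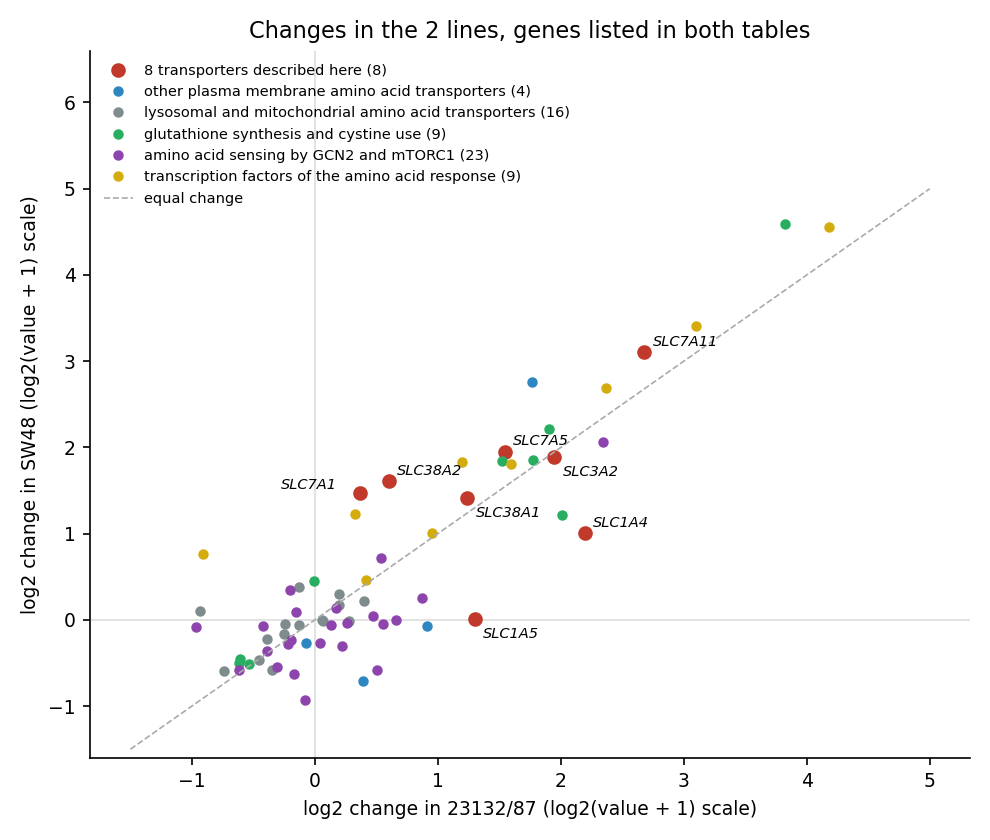
Log2 change with myricone C in 23132/87 (horizontal axis) against that in SW48 (vertical axis) for the 8 transporters (red, named) and the other list genes found in both tables (numbers in brackets), with a dashed line for equal change. SLC1A5 and SLC1A4 lie below the line, SLC7A1 and SLC38A2 above it, and the grey lysosomal and mitochondrial carriers all lie between -1 and 1 on both axes.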

How the data were processed

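Stranded mRNA libraries (TruSeq, per the labels' protocols) of 12 samples in 4 groups of 3 were analysed. The submitters' processing notes name FastQC, STAR and GRCh38. How reads were counted, with which annotation and strand setting, and the name of the unit were not given in the sources used here. For each line the authors deposited 1 table with an expression signal per gene that is already scaled, so it is not counts, depth cannot be stated and intervals for counting error are left out. In the values, every listed gene is at 1 or more in all 6 libraries of its line, and the lines were tabulated separately. The replicates are labelled biological and come from the same cell line within each group. P-values set each change against the spread between these replicates, with the variance moderated over genes by limma.

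Values were analysed as log2(value + 1), a scale that understates changes of low genes. A filter at a mean of 1 removed none. Each line was fitted with limma 3.58.1 (R 4.3.3) with a mean-variance trend and no covariate. For the difference, 10252 genes with the same symbol and identifier in both tables were fitted over the 12 libraries and the interaction of line and treatment was tested. P-values were adjusted by Benjamini-Hochberg over all genes of a fit. Scripts were tested on simulated data.

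The members and lists were chosen with earlier results of these data known. All 8 members are named, with the 3 other surface transporters and the 2 genes of each further list with the largest called change per line, ATF4, and the nearest genes by pattern. Gene positions are from GENCODE release 29 (GRCh38). Treated SW48 columns are numbered 2 to 4 and were matched to replicates 1 to 3 by the sample labels. Alternatives covered scaling, trend, pseudocount, filter, a joint fit, a replicate block and leaving out each library.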

Additional observations from a re-analysis of the deposited data

Results flagged for a closer look

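The response of 4 of the 8 transporters differed between the lines by the line-by-treatment term, against 12.8% of the genes in both tables. SLC1A5 differed by -1.30 (SW48 minus 23132/87), having risen in 3 of 3 treated 23132/87 libraries above all vehicle libraries and not in SW48. SLC1A4 differed by -1.19, with a rise in both lines. SLC7A1 differed by 1.10 and SLC38A2 by 1.01, each rising in both lines and more in SW48. The SLC7A1 rise in 23132/87 was small (0.37) and its call was lost without vehicle replicate 1. With groups of 3, no library was tested for standing apart.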

How the results depend on the processing

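The 8, 7 and 4 transporters called in 23132/87, in SW48 and for the difference between lines were counted under all alternatives as 7 to 8, 7 and 4. Over single values of the 8 genes, 439 of 440 alternative values kept their side of the threshold, SLC7A1 in 23132/87 being the exception, and no called value changed sign. Among uncalled values 6 changed sign, 3 for SLC1A5 in SW48, 2 for the difference of SLC3A2 and 1 for that of SLC7A11. Of the genes of the other lists, 115 of 3934 values lost a call and 50 gained one, and no called value changed sign. Leaving out each library gave 3959 to 4888 called genes in 23132/87 (5153 with all) and 2 to 3 other transporters (2 with all). In SW48 it gave 2199 to 3656 (3383 with all), the lowest without treated replicate 2, and 3 to 4 other transporters (4 with all). For the difference it gave 831 to 1413 (1309 with all), the lowest without SW48 vehicle replicate 2. With all 12 libraries in one fit, 2 other transporters were called in SW48, since that fit holds only genes in both tables and so leaves out SLC7A8 and SLC43A1. Of called genes, the share that rose was 34.6% in SW48 as deposited, 46.2% after quantile normalization and 46.4% after rescaling without mitochondrial pseudogenes and small RNA genes, and for the difference it was 41.8%, 53.5% and 41.2%, and 57.1% after median-centred scaling. Libraries of the same label number deviated with correlations of -0.27 to 0.11, and no vehicle library was nearest to its own label number. By column number, SW48 vehicle libraries 2 and 3 were each nearest to the treated library of that number (r = 0.15 and 0.27). Whether the libraries were paired was therefore not settled. With the replicate number as a block, 770 genes were called for the difference, and the counts of the 8 transporters stayed at 8, 7 and 4. With the column number as the block, 2585 genes were called in SW48 and 946 for the difference. The transporter counts there stayed at 7 and 4. The cause of the other shifts was not tested. Depth is unknown, and changes of low genes such as SLC7A11 in SW48 depend on the pseudocount.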

Other observations

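ATF5, a stress factor translated like ATF4 and chosen after its values were seen, went in opposite directions in the lines. It fell in 23132/87 from 22.7, 22.1 and 20.9 to 9.18, 11.2 and 13.5, a log2 change of -0.91 ± 0.14 (SE, adjusted p = 0.000525). It rose in SW48 from 40.9, 28.5 and 34.2 to 43.3, 62.5 and 74.0, a log2 change of 0.76 ± 0.19 (adjusted p = 0.0122). The difference between lines was 1.67 ± 0.26 (adjusted p = 0.00117).

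Carriers outside the 8 also differed between lines. The serine carrier SFXN1 differed by 1.03 ± 0.20 (adjusted p = 0.00530), the taurine carrier SLC6A6 by -0.98 ± 0.20 (adjusted p = 0.00663) and the glycine carrier SLC6A9 by 0.99 ± 0.24 (adjusted p = 0.0154). SLC43A2, the carrier LAT4, differed by -1.11 ± 0.27 (adjusted p = 0.0165) and was called under the 21 alternatives that kept it. A stricter filter on level left it out. Its mean went from 3.10 to 1.46 in SW48, near the lowest listed value of 1. In 23132/87 it went from 4.39 to 5.94, and that change was not called (0.39, adjusted p = 0.0932). With a pseudocount of 5 the SLC43A2 difference was -0.55 (adjusted p = 0.0233). The SLC6A9 difference was 0.53 and not called with a pseudocount of 5 (adjusted p = 0.0748).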
